A study of Mus musculus with 8 samples.

Results

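The immunity-related GTPases examined here were 7 mouse genes, Irgm1, Irgm2, Igtp, Iigp1, Tgtp1, Tgtp2 and Ifi47, chosen by gene symbol from the 55536 genes counted in the series. All 7 were among the 15998 genes that passed the filter on low counts, so no member was lost before testing. They were followed in 8 orthotopic liver tumors grown from HCA-1, a murine hepatocellular carcinoma line, in male C3H mice aged 6 to 8 weeks by the labels. The 4 IMQNP tumors (replicates 1 to 4) came from mice given a single intravenous dose of PFSUV-IMQ on day 17, and the 4 Control tumors (replicates 1, 3, 4 and 5) from mice that, by the methods of the study, received saline. PFSUV-IMQ is imiquimod, a small-molecule agonist of the endosomal RNA sensor TLR7, carried in phospholipid-free small unilamellar vesicles. The RNA of whole tumors was sequenced after 3 hours of circulation. Because empty vesicles were not analysed here, the parts of the carrier and of the drug in any difference cannot be told apart. All tumors descended from 1 transplanted line, and each label names 1 tumor without saying from which animal it came.

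Immunity-related GTPases are large interferon-inducible proteins of the mouse that defend cells against bacteria and parasites living inside vacuoles. The effector members carry a GKS sequence in the first nucleotide-binding motif of their GTPase domain, and once bound to GTP they assemble on the vacuole and break its membrane. The regulatory members carry GMS in that position, sit on the membranes of the cell's own organelles and hold the effectors there in the inactive, GDP-bound form. Irgm1, Irgm2 and Igtp (also called Irgm3) are the regulators, and Iigp1 (Irga6), Tgtp1 and Tgtp2 (the Irgb6 pair) and Ifi47 (Irgd) are the effectors examined here. A cell with effectors but without regulators damages its own membranes, so the balance of both classes is the usual question about this family. Interferon-γ, acting at GAS elements, and interferons of types I and III, acting through STAT2 and IRF9 at ISRE elements, are the known inducers.

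All but 1 of the 7 genes lie on chromosome 11 in the GRCm38 build, here with GENCODE M21 coordinates, and all 7 are annotated as protein coding. The first group spans 235 kb and holds Irgm1 (ENSMUSG00000046879, chr11:48861968-48871683, minus strand), Tgtp1 (ENSMUSG00000078922, chr11:48985327-48994172, minus strand), Tgtp2 (ENSMUSG00000078921, chr11:49057194-49064206, minus strand) and Ifi47 (ENSMUSG00000078920, chr11:49076587-49096974, plus strand). The second group begins 9.10 Mb further along, spans 23.2 kb, and holds Igtp (ENSMUSG00000078853, chr11:58199556-58207591) and Irgm2 (ENSMUSG00000069874, chr11:58199618-58222782), both on the plus strand, with annotated starts 62 bases apart.

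Promoter sequence is shown because the members' response could be set beside the letters that interferon-activated factors are known to bind. RefSeq promoters (GRCm38.p6, from 250 bases before to 50 bases after the start) matched 6 of the 7 members, Iigp1 being the one without an entry. They were searched on both strands for the ISRE letters GAAANNGAAA and the GAS letters TTCNNNGAA, where N is any base. The ISRE letters were present in 5 of 6 member promoters, against 3.44% of the 32851 promoters in the table, and the GAS letters in 4 of 6, against 8.30%. Each line below gives 70 bases, 5′ to 3′ on the strand of the gene, with the matched letters in capitals.
Irgm1 (chr11:48871416-48871485, minus strand): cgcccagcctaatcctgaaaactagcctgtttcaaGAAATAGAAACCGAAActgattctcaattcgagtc
Igtp (chr11:58199487-58199556, plus strand): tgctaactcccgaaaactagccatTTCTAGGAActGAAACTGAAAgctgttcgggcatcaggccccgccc
Irgm2 (chr11:58214878-58214947, plus strand): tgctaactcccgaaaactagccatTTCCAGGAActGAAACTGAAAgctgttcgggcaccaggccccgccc
Tgtp1 (chr11:48992289-48992358, minus strand): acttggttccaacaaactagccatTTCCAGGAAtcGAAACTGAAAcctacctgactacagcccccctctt
Tgtp2 (chr11:49064248-49064317, minus strand): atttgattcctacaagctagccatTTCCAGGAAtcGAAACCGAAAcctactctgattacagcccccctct

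Irgm1 held 2 ISRE matches that share 4 bases, beginning 30 and 24 bases before its RefSeq start, and no GAS match. In Igtp, Irgm2, Tgtp1 and Tgtp2 a GAS match was followed after 2 bases by an ISRE match. Their GAS letters began 45, 75, 88 and 81 bases before the respective RefSeq starts. For Irgm1, Irgm2 and Tgtp1 the RefSeq start lies inside the GENCODE coordinates given above and not at their 5′ end. Their windows were chr11:48871371-48871670, chr11:58214727-58215026 and chr11:48992197-48992496. The joint arrangement of GAS and ISRE letters, looked for after the promoters had been read, occurred in 5 of the 32851 promoters (0.0152%). They were those of the 4 members and of Gm12185, another GTPase of the family on chromosome 11. Gm12185 lies on the minus strand, overlaps Tgtp1 and by GENCODE starts at chr11:48992226, within the window of Tgtp1. Its match may therefore be the same letters as that of Tgtp1, counted again. The printed stretches of Igtp and Irgm2 were identical at 68 of 70 positions and those of Tgtp1 and Tgtp2 at 52 of 70, so these are copies of related sequence and not separate cases. Irgm1 shared at most 34.3% of positions with the other 4 when stretches were lined up, without gaps, at the first ISRE match of each. Lining up Irgm1 at its second match, or with gaps, was not tried, so this low share does not show unrelated sequence. The letters gaaaactagcc occur in the printed stretches of Irgm1, Igtp and Irgm2. Neither set of letters occurred in the RefSeq window of Ifi47, a gene with further annotated starts outside it. Matched letters describe sequence and are not evidence of binding in these tumors.

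In the IMQNP tumors 6 of the 7 members were called higher, while 2.46% of all tested genes were called higher and 0.219% lower. A call means a Benjamini-Hochberg adjusted p under 0.05 over all 15998 tested genes in the quasi-likelihood test of edgeR. The same 6 had a log2 fold change beyond 1 as well, against 2.26% of tested genes called higher with that added limit. For all 7, every IMQNP tumor lay above every Control tumor in normalized CPM (counts scaled to the size of the library), an arrangement found for 6.00% of tested genes and, in the opposite direction, for 3.28%. Log2 fold changes ran from 1.87 to 2.48 with a median of 1.94, beside a median of -0.03 over all tested genes. In bulk tumor RNA, more cells of an expressing type and more RNA per cell cannot be told apart.

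**Figure D1:**
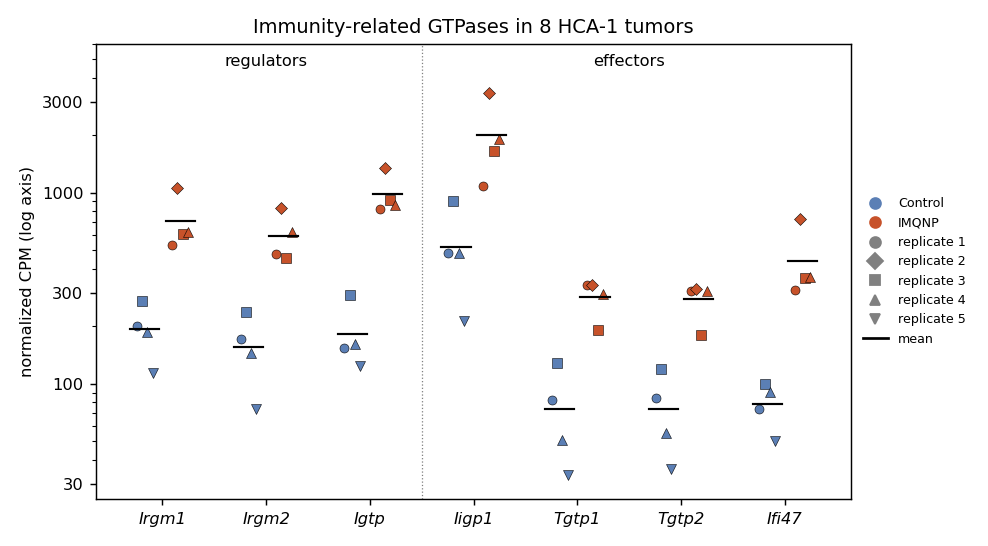
Normalized CPM (log axis) of the 3 regulators and 4 effectors in each of 4 Control (blue) and 4 IMQNP (orange) tumors. Symbols mark replicate numbers, which do not pair tumors across groups, and black lines are group means; for all 7 genes the orange points lie above the blue ones, with the smallest gap in Iigp1.

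Irgm1, which protects lysosomes and mitochondria in the regulator class, was measured at 201, 271, 186 and 114 CPM in Control replicates 1, 3, 4 and 5 and at 529, 1065, 611 and 624 CPM in IMQNP replicates 1 to 4. Control replicate 5 was the lowest and IMQNP replicate 2 the highest tumor, and the groups did not overlap. Means were 193 ± 64.4 and 707 ± 242 CPM (SD, n = 4 each), and edgeR gave a log2 fold change of 1.87 with a standard error of 0.32 (adjusted p = 0.0140). Without Control replicate 1 the adjusted p was 0.0595.

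Irgm2, a regulator associated with the Golgi apparatus, was found at 171, 236, 144 and 74.1 CPM in the Control tumors and at 477, 835, 457 and 619 CPM in the IMQNP tumors, each list in replicate order. Its Control tumors spread 3.19-fold from lowest to highest and its IMQNP tumors 1.83-fold, again without overlap. Means were 157 ± 67.2 and 597 ± 174 CPM (SD, n = 4 each), and the log2 fold change was 1.93, standard error 0.35 (edgeR adjusted p = 0.0210). That call was lost without Control replicate 1, Control replicate 4 or IMQNP replicate 4, where the adjusted p was 0.0751, 0.0635 and 0.0592.

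Igtp, the regulator of the endoplasmic reticulum and lipid droplets, had the largest increase of its class. Its 4 Control tumors were at 153, 290, 161 and 124 CPM and its IMQNP tumors at 825, 1346, 911 and 860 CPM. The lowest IMQNP tumor stood 2.84-fold above the highest Control tumor. From 182 ± 73.8 the mean reached 986 ± 243 CPM (SD, n = 4 each), with a log2 fold change of 2.44 and standard error of 0.31 (edgeR adjusted p = 0.00333). Igtp and Ifi47 were the members that stayed called whichever of the 8 tumors was left out.

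Iigp1, the effector best known for coating the vacuole of Toxoplasma, was the most abundant member in CPM and the only one of the 7 that did not pass the test. The gene (ENSMUSG00000054072) is on the plus strand of chromosome 18 at positions 60376027 to 60392634. Control tumors were at 482, 905, 486 and 212 CPM and IMQNP tumors at 1080, 3341, 1655 and 1904 CPM. The lowest IMQNP tumor, replicate 1, was 1.19-fold above the highest Control tumor, replicate 3, the narrowest gap of the family. Means of 521 ± 286 and 1995 ± 961 CPM (SD, n = 4 each) gave a log2 fold change of 1.94, close to that of Irgm2, but with a standard error of 0.47 (edgeR adjusted p = 0.0724). Its spread was the widest of the members within the IMQNP group, with a coefficient of variation of 48.2%, and close to the widest within the Control group at 54.8%. Iigp1 was called by DESeq2's Wald test (adjusted p = 0.00110), without the filter on low counts (0.0147) and with a hepatocyte marker score as a covariate (0.00486), all with a positive log2 fold change. It was not called in any of the 8 fits with 1 tumor left out, where the edgeR adjusted p ran from 0.0582 to 0.202.

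Tgtp1, an effector recruited early to the vacuole, was at 82.0, 128, 50.9 and 33.5 CPM in Control tumors and at 327, 328, 192 and 294 CPM in IMQNP tumors. Its neighbour and near copy Tgtp2 was at 84.3, 120.2, 55.5 and 35.9 CPM and then at 306, 315, 180 and 308 CPM. Both genes were lowest in Control replicate 5 and, within the IMQNP group, lowest in replicate 3. Log2 fold changes were 1.95 for Tgtp1 (standard error 0.39, edgeR adjusted p = 0.0311) and 1.90 for Tgtp2 (standard error 0.36, adjusted p = 0.0252). Neither gene passed in 5 of the 8 fits made with 7 tumors, those without Control replicate 1 or 4 or IMQNP replicate 1, 2 or 4, with adjusted p values up to 0.0958 for Tgtp1 and 0.0810 for Tgtp2.

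The Tgtp1 and Tgtp2 counts are not independent readings of the genes. Of all 50-base words in the annotated transcripts, 79.4% of those of Tgtp1 occur in Tgtp2 and 85.8% of those of Tgtp2 in Tgtp1, and the share of their summed counts given to Tgtp1 stayed between 47.8% and 51.7% in every tumor. How counting divided such reads is uncertain, so the sum was also fitted as 1 row, which gave a log2 fold change of 1.93 (standard error 0.38, edgeR adjusted p = 0.0297). Shared words were far fewer elsewhere, at 11.8% for Igtp, all with Irgm2, 7.83% for Irgm2, 4.81% for Ifi47, 1.69% for Iigp1 and 0.379% for Irgm1. Exons of other annotated genes overlap 8.01% of the exon bases of Igtp (by Irgm2), 4.39% of Irgm2 (by Igtp), 6.96% of Tgtp1 (by Gm12185) and 8.78% of Ifi47 (by Olfr56 and by Gm12188 on the other strand). Whether counting used the strand is not given in the sources used here.

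Ifi47, the effector with the least spread among Control tumors, was at 74.1, 99.5, 90.4 and 50.1 CPM there and at 310, 724, 358 and 363 CPM in IMQNP tumors. IMQNP replicate 2 was the highest tumor by far, and the groups did not overlap. The lowest IMQNP tumor was 3.12-fold above the highest Control tumor, the widest gap of the family. A mean of 78.5 ± 21.7 CPM became 439 ± 192 CPM (SD, n = 4 each), and the log2 fold change of 2.48 (standard error 0.33, edgeR adjusted p = 0.00416) was the largest among the members. With IMQNP replicate 2 left out the members called fell from 6 to 4, and Ifi47 remained the only called effector.

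Regulators and effectors had close medians. The median log2 fold change was 1.93 over the 3 regulators and 1.94 over the 4 effectors, and each class held 1 gene near 2.5 (Igtp and Ifi47) beside others near 1.9. To set the classes against each other within each tumor, the log2 ratio of every effector to every regulator was compared between groups, 12 pairs in all, by an exact two-sided permutation test that with 4 against 4 tumors cannot go below p = 0.0286. Differences of IMQNP minus Control ran from -0.49 to 0.56, with 7 of 12 above 0. Each ratio shares a gene with 5 others, so the 12 are not separate measurements. No ratio passed after adjustment over the 12 pairs, for which the smallest adjusted p was 0.343.

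**Figure D2:**
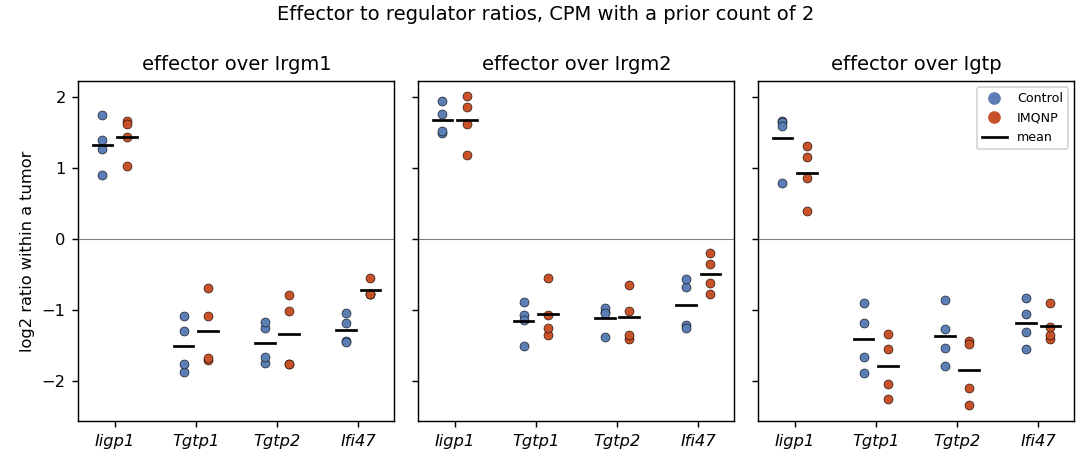
Log2 ratio of each effector to Irgm1, Irgm2 and Igtp within each tumor (points, 4 Control in blue and 4 IMQNP in orange; black lines, group means), from CPM with a prior count of 2. Only the ratio of Ifi47 to Irgm1 separates the groups without overlap.

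Ifi47 over Irgm1 was the 1 ratio without overlap. It was -1.44, -1.44, -1.04 and -1.18 in the Control tumors and -0.77, -0.56, -0.77 and -0.78 in the IMQNP tumors, on the log2 scale. The mean difference was 0.56 (-1.28 ± 0.20 against -0.72 ± 0.11, SD, n = 4 each; exact permutation p = 0.0286, the smallest possible, and 0.343 after adjustment). Ifi47 over Irgm2 differed by 0.44 with overlap (exact permutation p = 0.143), and Ifi47 over Igtp by -0.04 (exact permutation p = 0.886), these being the members with the largest log2 fold changes.

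Ratios to Igtp leaned the other way. The mean ratio of Iigp1 to Igtp was 1.42 ± 0.42 in Control and 0.93 ± 0.40 in IMQNP tumors, a difference of -0.49 (log2, SD, n = 4 each, exact permutation p = 0.200). For Tgtp2 over Igtp the difference was -0.47 (exact permutation p = 0.200) and for Tgtp1 over Igtp -0.38 (exact permutation p = 0.229). The groups overlapped in all 3, so lower effector to Igtp ratios were not resolved at this number of tumors. Single tumors moved these values: Iigp1 over Igtp was -0.31 without IMQNP replicate 1 and -0.70 without Control replicate 5, Tgtp2 over Igtp was -0.31 without Control replicate 1 or IMQNP replicate 3, and Tgtp1 over Igtp was -0.22 and -0.23 without those 2 tumors. Differences for Iigp1, Tgtp1 and Tgtp2 against Irgm1 and Irgm2 lay between -0.01 and 0.21. A missed threshold with 4 tumors a group does not show that the classes stayed in proportion.

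Levels were compared between members as CPM per kilobase of the union of annotated exons. Igtp was highest in both groups, at 90.1 ± 36.5 in Control and 487 ± 120 in IMQNP tumors (SD, n = 4 each). Iigp1 came next at 89.5 ± 49.1 and 343 ± 165. Irgm2 followed in Control tumors at 42.4 ± 18.2, then Irgm1 at 33.2 ± 11.1, Ifi47 at 31.8 ± 8.76, Tgtp2 at 25.2 ± 12.5 and Tgtp1 at 23.0 ± 12.9. After PFSUV-IMQ, Ifi47 stood in the third place at 178 ± 77.5, ahead of Irgm2 at 162 ± 47.2, Irgm1 at 122 ± 41.6, Tgtp2 at 94.3 ± 22.1 and Tgtp1 at 89.0 (from 59.8 to 102 over the 4 tumors).

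Several neighbours in that order did not differ beyond their spread. Igtp exceeded Iigp1 in 1 of 4 Control tumors but in 4 of 4 IMQNP tumors. Irgm1 exceeded Ifi47 in 2 of 4 Control tumors, and Ifi47 exceeded Irgm2 in 2 of 4 IMQNP tumors. Iigp1 was above Irgm2 in 4 of 4 Control tumors and above Ifi47 in 4 of 4 IMQNP tumors, so the step between the leading pair and the rest held in every tumor. The length used decides the leader: per kilobase of the longest annotated transcript Iigp1 was first, at 167 ± 91.6 and 639 ± 308, ahead of Igtp, whose value is the same on both lengths. On that length Irgm1 also came before Irgm2 in both groups (50.3 against 44.4 and 185 against 169), and Tgtp1 before Tgtp2 in IMQNP tumors (101 against 98.6).

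**Figure D3:**
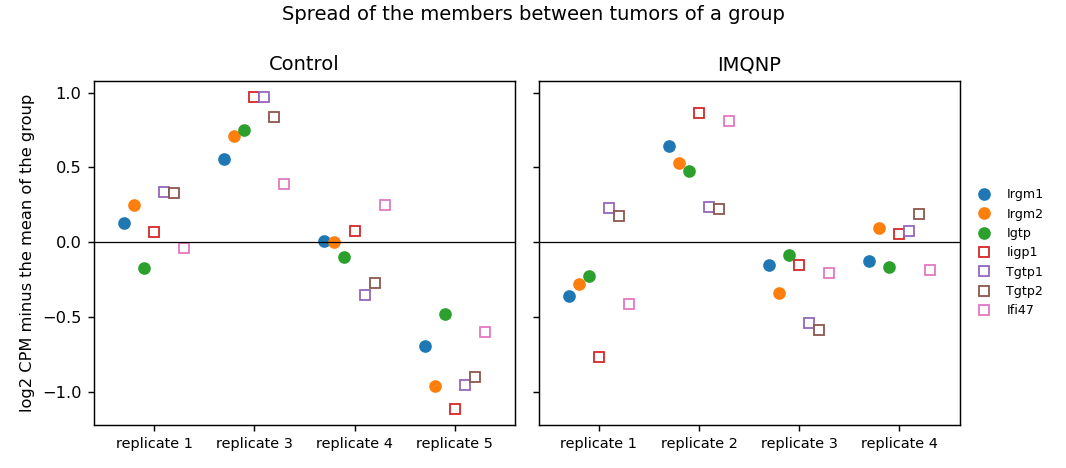
Log2 CPM of each member minus its mean over the 4 tumors of the group, by tumor (filled circles, regulators; open squares, effectors). All 7 members are above 0 in Control replicate 3 and IMQNP replicate 2 and below 0 in Control replicate 5 and IMQNP replicate 3.

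Within a group the members were largely high or low in the same tumors. Control replicate 3 had the highest and Control replicate 5 the lowest value of all 7 members among Control tumors. IMQNP replicate 2 had the highest value of all 7 in its group, by 328 against 327 CPM in the case of Tgtp1. The lowest IMQNP value fell in replicate 1 for 4 members and in replicate 3 for the other 3. As deviations from the group mean on the log2 scale, the median over the 7 members was 0.75 in Control replicate 3, -0.90 in Control replicate 5 and 0.53 in IMQNP replicate 2.

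Tumors that stood apart in the family also differed in other transcripts. Summed over 10 hepatocyte markers the level ran from 4710 to 36510 CPM in Control tumors and from 7743 to 42159 CPM in IMQNP tumors, and IMQNP replicate 2 held the highest sum and Control replicate 5 the lowest. Control replicate 4, with the second highest sum, was not high in the members. None of the 10 was called between the groups, and 8 of their log2 fold changes were above 0 (median 0.17). Sums of 4 pan-leukocyte markers were 329 to 442 CPM in Control and 271 to 512 CPM in IMQNP tumors, and sums of 9 macrophage markers 1770 to 2673 and 1201 to 2485 CPM, with no marker called in either list. Of the log2 fold changes, 3 of the 4 leukocyte markers and all 9 macrophage markers were below 0, and Coro1a (-0.56, edgeR adjusted p = 0.288) was lower in every IMQNP tumor than in every Control tumor. Sums of NK markers, of which Klrb1c was too low to test, were 10.6 to 56.2 and 27.4 to 84.5 CPM. Sums of neutrophil markers were 14.9 to 57.2 and 29.5 to 136 CPM, IMQNP replicate 2 again being highest in both lists. Log2 fold changes were above 0 for all 4 neutrophil markers (median 1.08) and for 2 of the 3 tested NK markers, none of them called. For 1 neutrophil marker every IMQNP tumor lay above every Control tumor, and for 1 T-cell marker below. Markers of dendritic, T, B and endothelial cells and of fibroblasts were not called either, and no marker was at 0 in all tumors. All 5 T-cell and all 5 endothelial log2 fold changes were below 0. Above 0 were 1 of 5 for dendritic cells (median -0.84) and 3 of 4 each for B cells and fibroblasts. With the mean hepatocyte marker level as a covariate, a choice made after these sums were seen, all 7 members were called, with log2 fold changes from 1.66 for Iigp1 to 2.31 for Igtp. The part of cell composition in the spread of the members between tumors was not tested otherwise.

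The sequenced libraries held 16883911 to 27687756 assigned counts in Control and 17008151 to 18527613 in IMQNP tumors, so 3 counts corresponded to 0.105 to 0.210 CPM, far under every member value. The normalization factor of IMQNP replicate 2 was 0.843, against 0.981 to 1.09 in the others. The labelled tumor type was checked against Afp, Gpc3, H19 and Igf2, markers of hepatocellular carcinoma and fetal liver. Their sum was only 5.03 to 10.8 CPM, with Igf2 at or near 0, whereas the epithelial markers Krt8, Krt18 and Epcam summed to 1003 to 2124 CPM.

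Of 11 further GTPases of the family, 9 were tested and 6 were called higher, with none lower, beside the 2.46% of all tested genes called higher. Gm12250 (Irgb10), an effector that attacks the membranes of intracellular bacteria, was at 25.9 ± 9.79 CPM in Control and 245 ± 123 CPM in IMQNP tumors (SD, n = 4 each), and its log2 fold change of 3.24 (standard error 0.40, edgeR adjusted p = 0.00295) was above that of any of the 7 members. Gm5431 followed with 3.01 (adjusted p = 0.0116) and Gm12185, one of the 5 promoters with the joint GAS and ISRE letters, with 2.94 (adjusted p = 0.00221). Gm12185 overlaps exons of Tgtp1 on the same strand. Reads of the pair may be split between them, so its value is uncertain, and its joint letters may be those of Tgtp1. Gm4951, Gm4841 and 9930111J21Rik1 were the others called. F830016B08Rik at 2.47 (adjusted p = 0.0895) and 9930111J21Rik2 at 1.78 (adjusted p = 0.0690) did not pass, and Irgq, a quasi-GTPase of the family, had -0.41 (adjusted p = 0.414). Without IMQNP replicate 2 the log2 fold change of Gm5431 was 2.36. The median over the 9 was 2.27, and with 1 tumor left out between 3 (without Control replicate 1) and 6 were called.

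**Figure D4:**
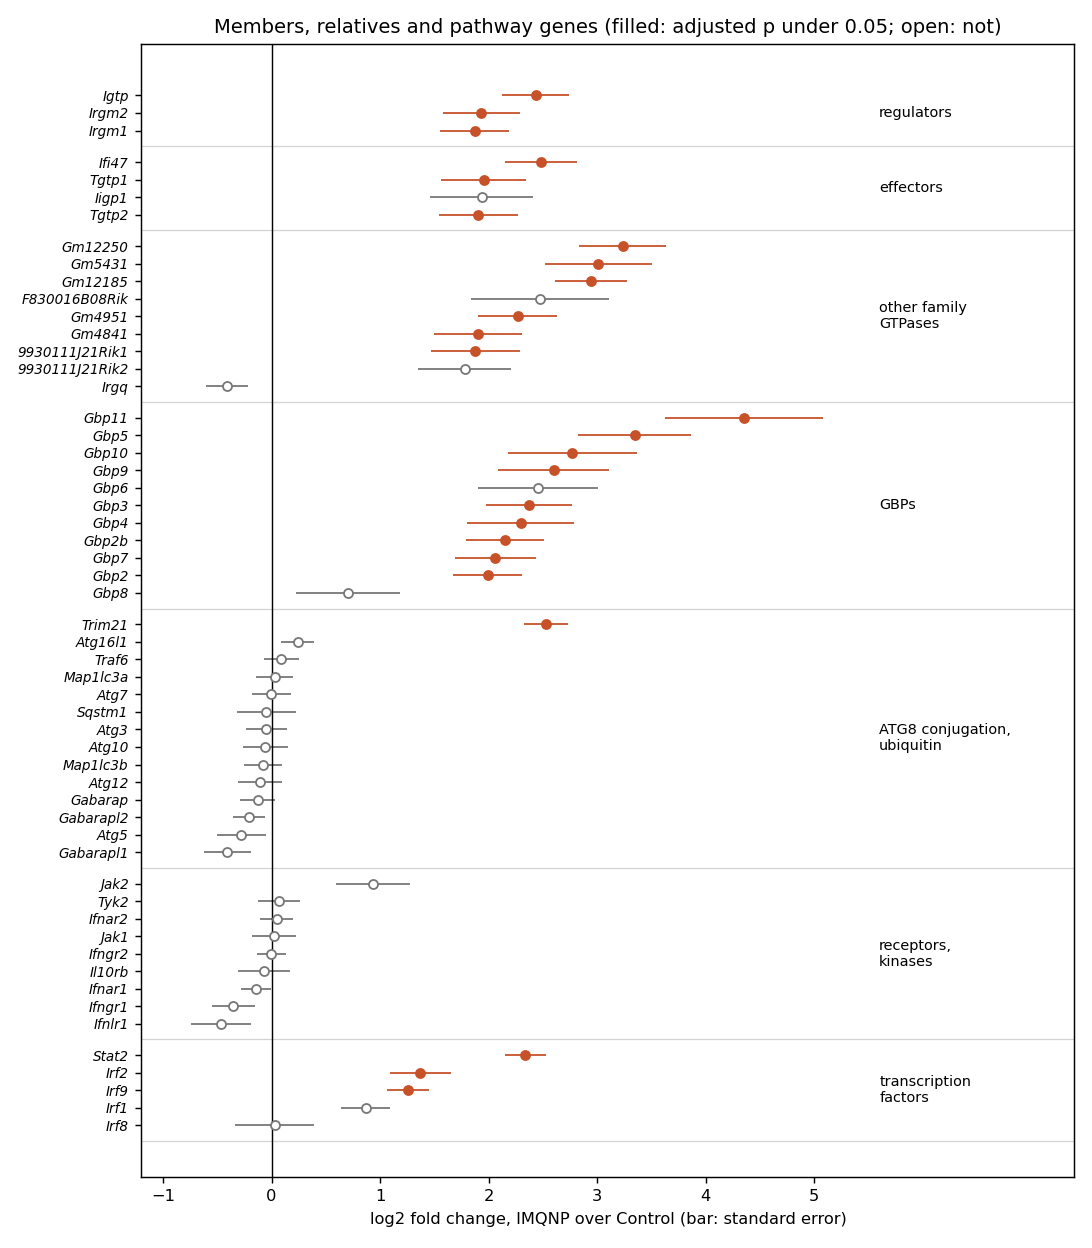
Log2 fold change of IMQNP over Control with its standard error for the tested genes of 7 lists (filled orange, edgeR adjusted p under 0.05; open grey, not). Members, all relatives but Irgq and all guanylate-binding proteins (GBPs) but Gbp8 lie above 1.7, while receptors, kinases and all ATG8 and ubiquitin partners but Trim21 lie under 1.

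Guanylate-binding proteins, the larger GTPases that join the immunity-related GTPases on vacuoles, were called higher in 9 of 11 cases and lower in none, beside 2.46% and 0.219% of all tested genes. Gbp11 had the largest value at 4.35 (standard error 0.73, edgeR adjusted p = 0.0132), then Gbp5 at 3.35 (standard error 0.52, adjusted p = 0.00963) and Gbp10 at 2.77 (standard error 0.59, adjusted p = 0.0419). Gbp6 (adjusted p = 0.0516) and Gbp8 (adjusted p = 0.636) did not pass. IMQNP replicate 2 weighed heavily on Gbp11, Gbp5 and Gbp10, which without it had log2 fold changes of 3.50, 2.60 and 1.90. Gbp10 then lay below Gbp3 (2.03), Gbp2b (1.99) and Gbp9 (1.94). The median of the 11 was 2.37 with all tumors. Gbp4, Gbp8 and Gbp9 have overlapping annotated coordinates on chromosome 5, and whether reads were split among them was not examined. With 1 tumor left out the number called was 1 without Control replicate 1, 5 without Control replicate 4 or IMQNP replicate 4, and 6 to 10 otherwise, 6 without Control replicate 3 or 5.

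Partners that place the GTPases on membranes were measured as well. The ATG8 proteins and their conjugation enzymes, needed for the regulators to work and the effectors to be placed, and 3 ubiquitin-related partners made a list of 14, all tested. Only Trim21, a ubiquitin ligase and antibody receptor, passed, 1 of 14 beside 2.46% of all tested genes called higher, with a log2 fold change of 2.53 (21.5 ± 3.72 to 124 ± 24.7 CPM, SD, n = 4 each, edgeR adjusted p = 4.99e-04). The next in size were Gabarapl1 at -0.41 (adjusted p = 0.502) and Atg5 at -0.28 (adjusted p = 0.711), and the median of the list was -0.05.

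Of 13 interferon ligand genes, only Ifng, the main known inducer of the family, had enough counts to test. Its counts were 51, 95, 56 and 17 in Control and 46, 81, 49 and 56 in IMQNP tumors. That is 2.25 ± 1.00 and 3.50 ± 1.45 CPM with overlap (log2 fold change 0.62, standard error 0.42, edgeR adjusted p = 0.629). Ifnb1 had 2, 4, 0 and 2 counts in Control and 4, 7, 3 and 3 in IMQNP tumors, mostly at the floor of 3, and no fold is given. Ligand made earlier or outside the tumor was not measured here.

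Receptors and kinases upstream of the family were not called in any of 9 cases, where 2.46% of all tested genes were called higher and 0.219% lower, so that a count of 0 among 9 is near the background. Jak2 had the largest value, 0.93 (standard error 0.34, edgeR adjusted p = 0.262), followed by Ifnlr1 at -0.46 (adjusted p = 0.567) and Ifngr1 at -0.35 (adjusted p = 0.529). Among 5 interferon transcription factors, 3 were called higher and none lower, beside the same shares. Stat2, the subunit particular to the ISRE-binding complex, was at 102 ± 11.9 and then 517 ± 81.3 CPM (SD, n = 4 each), with a log2 fold change of 2.34 (edgeR adjusted p = 4.99e-04). Irf2 rose by 1.37 on the log2 scale (adjusted p = 0.0340, edgeR) and Irf9, which joins Stat2 in that complex, by 1.26 (adjusted p = 0.00870). The call of Irf2 held in 2 of the 8 fits with a tumor left out, those of Stat2 and Irf9 in all 8. Irf1, itself a known activator of these GTPases, had 0.87 (adjusted p = 0.0939), with every IMQNP tumor above every Control tumor.

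Genes around the members were also described. Position was not used to choose the members, but other GTPases of the family lie beside them. Of 41 tested genes within 500 kb that are not members, 10 were called higher and 1 lower, beside 2.46% and 0.219% of all tested genes. These 10 include all 6 genes called among the further GTPases of the family, so their number is not a separate result. Around the Irgm1 to Ifi47 group, 6 of 13 were called higher, namely Gm5431, Gm12185, Psme2b (2.37, adjusted p = 0.0165, edgeR), 9930111J21Rik1, Olfr56 (2.65, adjusted p = 0.0185) and Olfr1396 (2.15, adjusted p = 0.0309). Btnl9, a butyrophilin-like gene, was the 1 lower call of the region (-2.04, adjusted p = 0.0116). Olfr56 overlaps exons of Ifi47, and Gm12185 those of Tgtp1, each on the same strand. Reads of either pair may be split between its genes, so the values of Olfr56 and Gm12185 are uncertain.

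**Figure D5:**
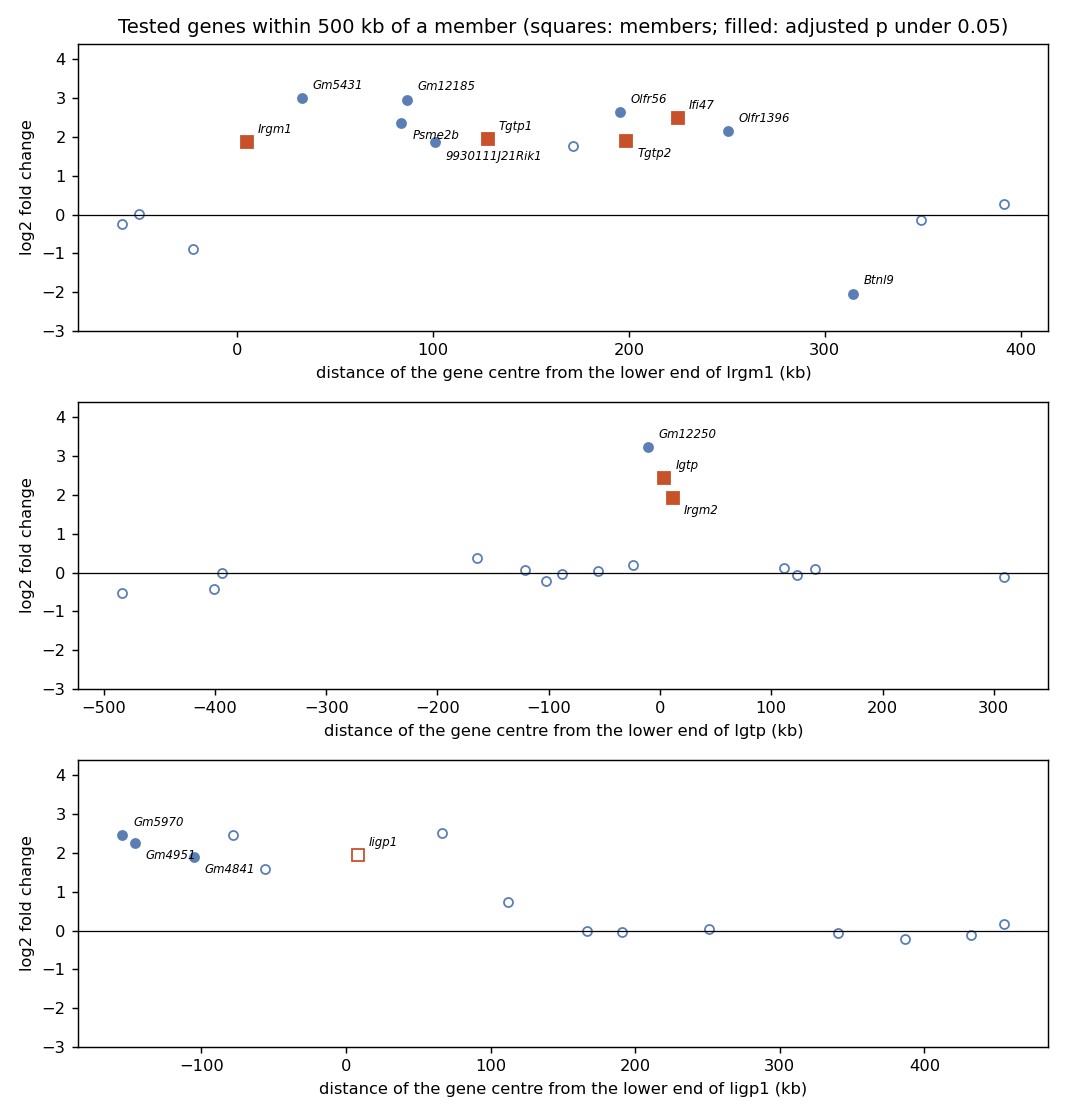
Log2 fold change of tested genes within 500 kb of a member, by the distance in kb of each gene's centre from the lower end of Irgm1 (top), Igtp (middle) or Iigp1 (bottom). Squares are members, circles other genes, and filled symbols have an edgeR adjusted p under 0.05; beside Igtp and Irgm2 only Gm12250 is filled.

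Beside Igtp and Irgm2, Gm12250 was the only gene called of 14, and the median log2 fold change of the 14 was 0.01. Around Iigp1, 3 of 14 were called, Gm4951 (2.27, edgeR adjusted p = 0.0110), Gm4841 (1.90, adjusted p = 0.0416) and Gm5970 (2.47, adjusted p = 0.00516), of which Gm4951 and Gm4841 are in the family list.

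The genes whose profile over the 8 tumors was most like that of the members were found by the root mean square difference, in log2 units, between each gene's centred log2 CPM and the mean centred profile of the 7 members. The closest non-members were Gbp2 (0.17), Gbp2b (0.17), Gm8995 (0.17), Dtx3l (0.19), Gbp3 (0.19), Gm4841 (0.22), Enpp4 (0.25), Il15 (0.25), Gbp7 (0.26) and Parp9 (0.26). Of these 10, 4 are guanylate-binding proteins, and Dtx3l and Parp9 encode partners in 1 ubiquitin ligase complex. The members themselves lay between 0.10 for Irgm2 and 0.28 for Ifi47, helped by their own share in the mean profile. Likeness over 8 tumors reflects both the difference between groups and the spread between tumors, and it is given as a description.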

How the data were processed

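RNA of 8 tumors was extracted with the RNeasy kit and made into libraries with the KAPA mRNA HyperPrep kit. The authors deposited a table of raw gene counts and a table of counts divided by DESeq2 size factors (a signal), which was used only for its gene symbols, joined by Ensembl gene ID. Per the labels' processing notes, reads were trimmed with Trimmomatic 0.38, aligned with HISAT2 2.1.0 and counted with featureCounts 2.0.0, whereas the methods of the study name TopHat and HTSeq, so which tools made the counts is unsure. The genome build is not given in the sources used here, and all 55536 gene IDs were found in GENCODE M21 (GRCm38), which supplied coordinates and lengths.

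The members, gene lists and tests were chosen with earlier results of these data known. Counts were normalized by TMM in edgeR 4.0.16 (R 4.3.3), filtered with filterByExpr and tested with glmQLFit and glmQLFTest, IMQNP against Control, without covariates, with Benjamini-Hochberg adjustment over 15998 genes at 0.05. CPM uses the TMM-scaled library size. The fit was tested on simulated data. The labels do not state that the tumors came from separate animals, so p-values measure the spread between these samples, whose counts differed by a chi-square of 30.1 to 296 per degree of freedom within a group, far above sampling noise. Ratios used a prior count of 2 and exact permutation tests in scipy 1.17.1. DESeq2 1.42.0 was an alternative. Genes named were the members, in every other list except the cell type markers the 3 of largest absolute log2 fold change, a few set interferon genes, the 10 most like genes and called genes within 500 kb. Others named beside a count, such as those of a list that did not pass and single markers, were chosen after their values were seen. One listed gene is not reported here. Protein sequences were not used here, so the GKS and GMS classes are background knowledge.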

Additional observations from a re-analysis of the deposited data

Results flagged for a closer look

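In all, 7 values stood far from the other 3 tumors of their group, the gap to the nearest being a large share of the whole range, among 52 groups of 4 examined. Chance flags about 1 in 20 such groups, and values of 1 tumor are not independent. IMQNP replicate 2 gave 5 of the 7. In it, Igtp was at 1346 CPM (nearest 911), Ifi47 at 724 CPM (nearest 363), Gm12250 at 428 CPM (nearest 197), Ifnb1 at 0.489 CPM (nearest 0.221, from 7 and 4 counts), and the log2 ratio of Ifi47 to Irgm1 was -0.56 (nearest -0.77). Tgtp2 was low in IMQNP replicate 3, at 180 CPM (179.95, nearest 306). In Control replicate 5 the log2 ratio of Iigp1 to Igtp was low at 0.78 (nearest 1.59). The cause of these values was not tested.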

How the results depend on the processing

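All 7 members kept a positive log2 fold change under every alternative run. The members called, 6 with TMM, were 6 with DESeq2 size factors, upper-quartile factors, at least 10 counts in every tumor or an added limit of 1 on the log2 fold change, 7 without the filter, by DESeq2's Wald test and with the hepatocyte covariate (added after seeing the data), and 2 (Igtp and Ifi47) when glmTreat tested against a log2 fold change of 1. Leaving out 1 tumor gave 2 to 6, with 2 without Control replicate 1, 3 without Control replicate 4 or IMQNP replicate 4, and 4 without IMQNP replicate 1 or 2, each fit having fewer samples. Genes called higher, 394, became 729 by the Wald test, 119 by glmTreat and 780 with the covariate, and 198 to 398 with 1 tumor out. Genes called lower, 35, became 64 without the filter, 176 by the Wald test, 1 by glmTreat, 302 with the replicate block, 550 with the covariate and 8 to 41 with 1 tumor out. The groups share replicate numbers 1, 3 and 4, which do not pair tumors (correlations 0.29, -0.27 and -0.32, none best with its own number). With the replicate block 5 members were called: Iigp1 passed (1.33, adjusted p = 0.0454), while Tgtp1 (1.71, adjusted p = 0.0531) and Tgtp2 (1.64, adjusted p = 0.0535) did not.

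The scaling moved the median of all genes from -0.03 to -0.10 at most (upper quartile). With 1 tumor out, ratio differences changed sign for Iigp1 over Irgm1 (-0.031 to 0.25) and Irgm2 (-0.12 to 0.15), Tgtp1 over Irgm2 (-0.078 to 0.19), Tgtp2 over Irgm1 (-0.057 to 0.27) and Irgm2 (-0.15 to 0.11) and Ifi47 over Igtp (-0.16 to 0.074). Ifi47 over Irgm1 stayed between 0.50 and 0.64, where the exact test cannot go below 0.0571. A prior count of 0.5 moved no ratio difference by 0.01, and no other normalization was run for ratios. The 5 and 4 promoter matches stayed in the part before the start (2.98% and 7.02% of all promoters). Depth did not limit the members, whereas 12 of 13 interferon ligands were too low to test. The cause of these changes was not tested otherwise.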
